A study of Mus musculus with 12 samples.

Results

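The 10 genes described here are those by which principal cells of the renal collecting duct are usually recognised: Avpr2, Aqp2, Aqp3, Aqp4, Scnn1a, Scnn1b, Scnn1g, Hsd11b2, Fxyd4 and Elf5. They were taken by name from a bulk RNA-seq count table of mouse kidney that holds 55487 gene identifiers, and all 10 passed the low-count filter in every comparison. The table covers 12 libraries in 4 groups of 3. Ctrl mice were ALR flox/flox without Cre, and PT-KO mice were ALR flox/flox with Ggt1-Cre. The groups Ctrl+I/R (injured controls) and PT-KO+I/R (injured knockouts) were the same genotypes after 22 min of bilateral renal ischemia and 24 h of reperfusion. ALR (gene Gfer) is a sulfhydryl oxidase of the mitochondrial intermembrane space. By the study's methods the mice were on a mixed C57BL/6 background and 6 to 8 weeks old. The labels call the genotypes WT and ALR knockdown and the uninjured mice Sham. Ggt1-Cre is meant to act in the proximal tubule, and the collecting duct is not its target.

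Principal cells reabsorb water and sodium in the last segments of the nephron. Vasopressin binds its V2 receptor (Avpr2) on the blood side of the cell, cAMP rises, and the water channel AQP2 is inserted into the apical membrane, while water leaves through AQP3 and AQP4 in the basolateral membrane. Aldosterone acts through the mineralocorticoid receptor (Nr3c2) on the epithelial sodium channel ENaC, which is built of the subunits encoded by Scnn1a, Scnn1b and Scnn1g. The enzyme encoded by Hsd11b2 inactivates glucocorticoids in the same cells and thereby keeps them off that receptor. Fxyd4 encodes a small modulator of the sodium pump, and Elf5 an ETS-family transcription factor of the principal cell lineage. A loss of AQP2 and of concentrating ability is a known feature of ischemic kidney injury.

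Library totals ran from 12165089 to 23123693 counts, and 20416 to 22210 genes had a count. Gfer was at 11.4 to 14.4 CPM in Ctrl and at 9.96 to 17.1 CPM in PT-KO, where CPM is the count relative to the TMM-normalised library size. These groups overlapped (log2 fold change 0.13, adjusted p = 0.761 by edgeR), so the gene count did not separate the genotypes. After injury Gfer was at 15.3 to 19.98 CPM in the controls and at 21.58 to 22.77 CPM in the knockouts. Every injured knockout thus lay above every injured control, the direction opposite to a deletion, although the difference did not pass the test (log2 fold change 0.32, adjusted p = 0.0723). The gene count sums all exons and all kidney cells, which makes it a weak check of a deletion in a single cell type. The study itself reported lower ALR expression in PT-KO than in control kidneys, and the groups are used as labelled. Xist was found in Ctrl libraries 1 and 2 (22402 and 19755 counts), which had no Y-linked counts. In the other 10 libraries Y-linked genes had counts and Xist never exceeded 11. Comparisons with Ctrl thus mix the sexes in 1 arm, and those between the other groups do not. The labelled tissue is kidney cortex, but the inner medullary urea transporter Slc14a2 had 10.7 to 62.6 CPM over the 12 libraries. It was lowest in PT-KO library 2, with 42.4, 10.7 and 46.0 CPM in the 3 PT-KO libraries. The same library was the lowest of its group in 8 of the 10 members, the exceptions being Hsd11b2, where it was in the middle, and Scnn1a, where it was the highest, and the part of tissue sampling in these values was not tested. Among the injured controls, the tubular injury marker Havcr1 was at 785, 2105 and 381 CPM in libraries 1, 2 and 4. These libraries rank in the reverse order for 8 of the 10 members, but not for Fxyd4 and Elf5. Genes outside the members can rank so too, such as Slc12a1 of the thick ascending limb (486, 59.9 and 720 CPM). The share of all genes in this order was not counted, and its link with injury was not tested.

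Promoters are shown first, because Aqp2 is known to be regulated through cAMP and several members moved together. Windows of 250 bases before the start site (RefSeq, GRCm38.p6, which is mm10) were used for 7 of the 10 members. Hsd11b2, Aqp4 and Scnn1a were left out of this step, which does not mean that they lack a window, and their promoters are not described. In the sequences below, read 5′ to 3′ along the gene, capitals mark matches on either strand to the cAMP response element core TGACG, the GATA core GATAA and the ETS core GGAAG. The windows are chr15:99578806-99579055 (plus strand) for Aqp2, chr4:41098184-41098433 (minus strand) for Aqp3, chrX:73891852-73892101 (plus strand) for Avpr2 and chr7:121734229-121734478 (plus strand) for Scnn1g.
Aqp2: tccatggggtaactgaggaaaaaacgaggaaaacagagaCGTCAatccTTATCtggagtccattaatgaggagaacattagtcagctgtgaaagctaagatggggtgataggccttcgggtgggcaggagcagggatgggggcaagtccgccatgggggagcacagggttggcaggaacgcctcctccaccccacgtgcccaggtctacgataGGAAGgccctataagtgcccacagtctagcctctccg
Aqp3: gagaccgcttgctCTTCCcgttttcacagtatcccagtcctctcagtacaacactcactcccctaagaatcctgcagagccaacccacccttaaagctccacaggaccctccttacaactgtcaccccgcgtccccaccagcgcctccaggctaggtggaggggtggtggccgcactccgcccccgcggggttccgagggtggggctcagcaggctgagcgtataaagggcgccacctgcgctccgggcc
Avpr2: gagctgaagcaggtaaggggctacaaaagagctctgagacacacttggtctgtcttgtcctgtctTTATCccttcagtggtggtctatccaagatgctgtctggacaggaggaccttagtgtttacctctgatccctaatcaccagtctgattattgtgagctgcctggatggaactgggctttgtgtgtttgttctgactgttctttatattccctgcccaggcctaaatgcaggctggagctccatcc
Scnn1g: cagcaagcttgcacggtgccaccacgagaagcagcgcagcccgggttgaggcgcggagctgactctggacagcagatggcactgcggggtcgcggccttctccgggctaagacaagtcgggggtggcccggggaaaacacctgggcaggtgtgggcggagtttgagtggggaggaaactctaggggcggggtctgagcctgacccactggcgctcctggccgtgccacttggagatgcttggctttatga
The Aqp2 window held all 3 kinds of match, and it was not the only one with a TGACG core. Counted from the start site, the TGACG core lay on the minus strand from base -211, a GATAA core on the minus strand from base -202 and a GGAAG core on the plus strand from base -37, and none of these overlapped. Aqp3 had an ETS core alone (minus strand, from base -237), Avpr2 a GATA core alone (minus strand, from base -185), and Scnn1g none of them. Of the windows not printed, 1 of the 2 at Elf5 held a TGACG core (minus strand, from base -56) and a GATAA core (minus strand, from base -206). The other at Elf5 (plus strand, from base -103) and that of Scnn1b (plus strand, from base -61) held an ETS core alone, and that of Fxyd4 held none. Over all 32851 windows of the same length, 17.8% held TGACG, 22.6% held GATAA and 64.1% held GGAAG. These matches describe letters in a window and not binding.

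The members spanned a wide range of levels in uninjured kidneys. Per kilobase of annotated exon, Aqp2 stood highest in Ctrl at 83.7 ± 10.6 CPM per kb (SD, n = 3). Hsd11b2 (55.1 ± 9.51 CPM per kb) and Aqp3 (53.9 ± 9.11 CPM per kb) followed and were not separated from each other. Of the ENaC subunits, Scnn1a had 27.1 ± 2.45, Scnn1b 17.4 ± 2.79 and Scnn1g 14.2 ± 0.888 CPM per kb, and the libraries of Scnn1b and Scnn1g overlapped. Fxyd4 was at 11.4 ± 1.25 CPM per kb, while Aqp4 (5.91 ± 1.40 CPM per kb) and Avpr2 (5.03 ± 0.0802 CPM per kb) overlapped again. Elf5 was lowest at 0.261 ± 0.0181 CPM per kb, with 26 to 30 counts in a Ctrl library. The order was another one in the injured knockouts. There, Scnn1a (31.3 ± 2.81 CPM per kb) and Aqp2 (30.8 ± 15.2 CPM per kb) shared the top, and Hsd11b2 had dropped to 4.92 ± 1.81 CPM per kb, below both other ENaC subunits.

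**Figure D1:**
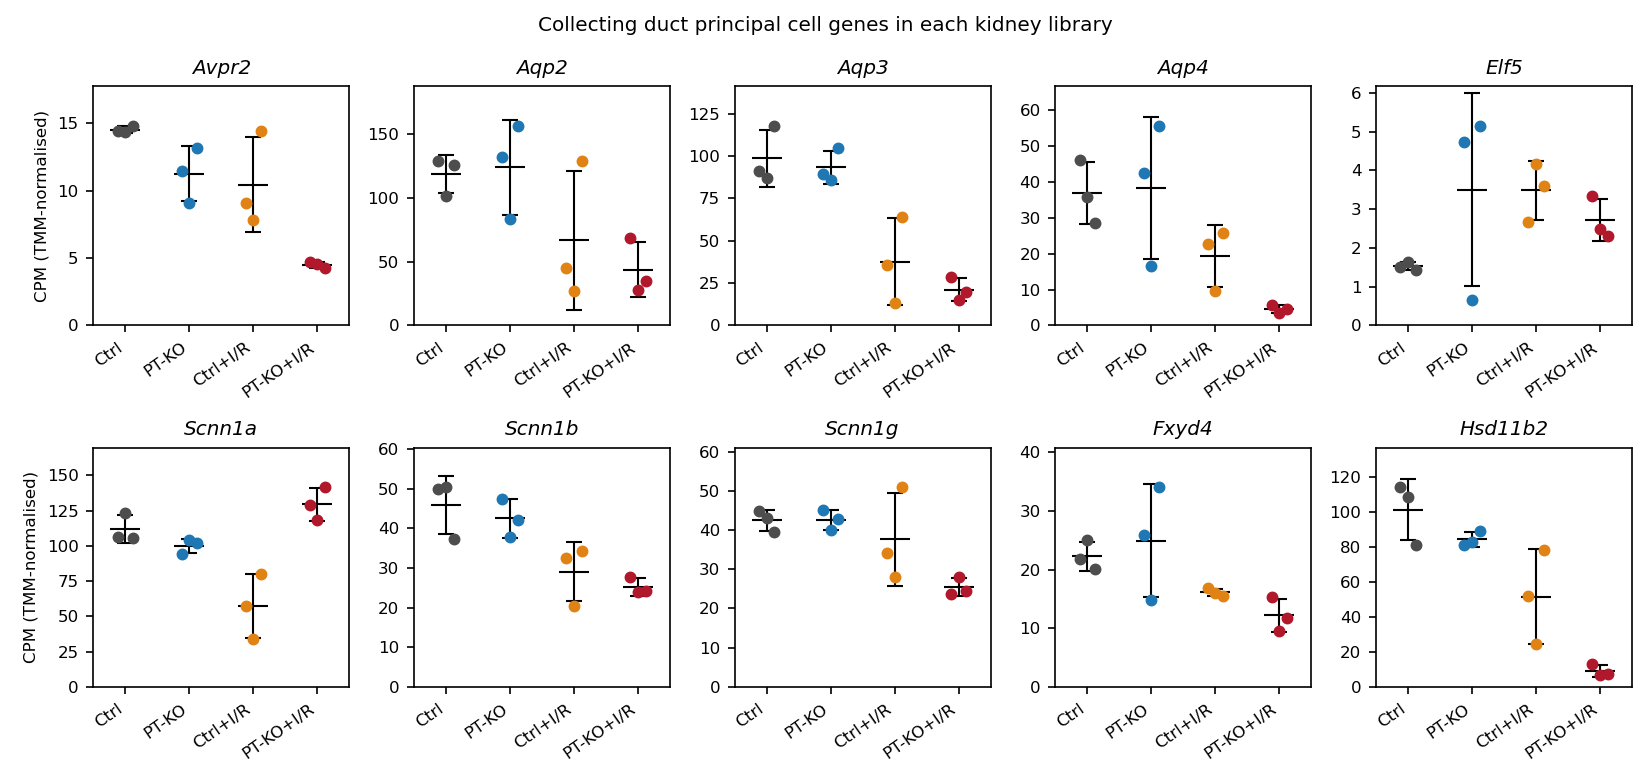
TMM-normalised CPM of the 10 principal cell genes in the 12 libraries, 1 panel per gene with the axis starting at 0. Points are libraries, the horizontal line is the mean of 3 and the bars are ± SD; Hsd11b2, Aqp4 and Avpr2 sit lowest in the injured knockouts without overlap, and Scnn1a stands there above every injured control.

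The first question was whether the knockout alone changed these genes in uninjured kidneys, and no member passed the test. The edgeR quasi-likelihood test of PT-KO against Ctrl called 0 of the 10 members and 0 of 15291 genes in all (0%). At an unadjusted p under 0.05 it counted 1 member and 16.8% of all genes, and DESeq2 called 458 genes, again with 0 members. Of the members, 5 had a positive and 5 a negative log2 fold change. Scnn1g was at 44.8, 43.0 and 39.6 CPM in Ctrl and at 45.1, 40.0 and 42.9 CPM in PT-KO, a log2 fold change of 0.0029 ± 0.087 (SE). Avpr2, the member with the smallest p, was at 14.4, 14.3 and 14.8 CPM in Ctrl and at 11.5, 9.09 and 13.2 CPM in PT-KO. These libraries did not overlap, nor did those of Scnn1a (106 to 124 CPM in Ctrl and 94.0 to 104 CPM in PT-KO), whereas 21% of all genes tested had groups that did not overlap. The log2 fold change of Avpr2 was -0.37 ± 0.15 (adjusted p = 0.271 by edgeR). Elf5 differed most in size, by 1.18 ± 0.63 (adjusted p = 0.367), but its PT-KO libraries had 75, 12 and 84 counts, so library 2 lay below and the others above the Ctrl libraries in CPM. Without Ctrl library 3, a single member was called, Hsd11b2 (adjusted p = 0.0154, log2 fold change -0.40), and so were 12.4% of all 15597 genes, against 0% with all libraries. Both Ctrl libraries of that fit carried Xist and no PT-KO library did, so sex and genotype cannot be told apart in it. In the all-library fit without the Xist-carrying libraries, the log2 fold change of Hsd11b2 was 0.0413, with 1 Ctrl library left.

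Injury of control kidneys came next. Fitted levels were lower in the injured than in the uninjured controls for 9 of the 10 members, with a median log2 fold change of -0.74 against -0.012 over all genes tested. Of these, 2 passed the test as lower, Scnn1a and Fxyd4, and Elf5 passed it as higher. That is 3 of 10 members, where 19.4% of all 15567 genes were called (11.4% higher and 7.97% lower). The groups did not overlap for 7 members, beside 43.6% of all genes.

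Scnn1a, the alpha subunit of ENaC (mm10 chr6:125320659-125344943, plus strand), had 106, 124 and 106 CPM in Ctrl and 57.6, 34.2 and 79.9 CPM after injury. Every injured library was below every uninjured one, and the log2 fold change was -0.96 ± 0.28 (adjusted p = 0.0495). Fxyd4 went from 20.2 to 25.0 CPM in Ctrl to 15.5 to 16.8 CPM, a log2 fold change of -0.46 ± 0.12 (adjusted p = 0.0363). Elf5 had 1.44 to 1.65 CPM in Ctrl and 2.68 to 4.17 CPM after injury, with no overlap, and rose by 1.18 ± 0.26 on the log2 scale (adjusted p = 0.0248). This call, the only higher one, was lost in 4 of the 6 fits that leave out 1 library (adjusted p of 0.0366 to 0.08979). It was also lost in a fit to all 12 libraries (adjusted p = 0.111). Of the same 6 fits, Scnn1a lost its call in 4 (adjusted p of 0.0137 to 0.1462) and Fxyd4 in 5 (0.0418 to 0.1369). With total-count scaling the calls of Scnn1a and Fxyd4 were lost, and that of Elf5 was kept.

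The water channels spread widely among the injured controls. Aqp2 was at 45.0, 26.8 and 129 CPM in injured libraries 1, 2 and 4, beside 129, 102 and 126 CPM in Ctrl. Library 4 lay within the range of the uninjured kidneys, and the log2 fold change was -0.82 ± 0.51 (adjusted p = 0.27). Aqp3 had 91.3, 86.9 and 118 CPM in Ctrl and 35.4, 13.5 and 64.2 CPM after injury. Its groups did not overlap, yet the log2 fold change of -1.38 ± 0.48 did not pass (adjusted p = 0.0784). Hsd11b2 had 114, 108 and 81.5 CPM against 51.9, 24.5 and 78.5 CPM (log2 fold change -0.97 ± 0.37, adjusted p = 0.104). The other 4 members that did not pass were Aqp4 (-0.92, adjusted p = 0.1002), Scnn1b (-0.65, adjusted p = 0.0718), Avpr2 (-0.48, adjusted p = 0.168) and Scnn1g (-0.17, adjusted p = 0.584). In bulk tissue, where a member is lower, fewer principal cells and less RNA per principal cell cannot be told apart. The counts also hold any RNA of these genes from other kidney cells.

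The count of 3 called members changed with the libraries used, and so did the share of all genes called. Leaving out Ctrl library 1 or Ctrl library 2 left 0 members called, beside 2.39% and 2.56% of all genes. A fit to all 12 libraries called 4 members and 30.5% of all genes. These were Aqp3, Scnn1a, Scnn1b and Hsd11b2, all lower, so that Scnn1a alone was kept of the 3 and the calls of Fxyd4 and Elf5 were lost. The same fit without both Ctrl libraries that carried Xist called 0 members and 6.92%. Ctrl is then 1 library, assumed to vary like the other groups. Leaving out Ctrl library 3, or injured control 1 or 2, left 1 called, beside 14%, 5.28% and 10.2% of all genes. Without injured control 4 there were 7, since Aqp2, Aqp3, Avpr2, Scnn1g and Hsd11b2 then passed as lower and Fxyd4 was lost, beside 25% of all genes. DESeq2 called 7 members and 26% of all genes, with Aqp3, Aqp4, Scnn1b and Hsd11b2 lower in addition to the calls of Scnn1a, Fxyd4 and Elf5.

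Injury of knockout kidneys moved most of the members. Of the 10 members, 8 were lower and 1 was higher in the injured than in the uninjured knockouts, against 65.5% of all 15155 genes called (32.7% lower and 32.9% higher). The groups did not overlap for 8 members, beside 70.8% of all genes. The members' median log2 fold change was -1.19, beside 0.011 over all genes tested.

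Hsd11b2 (mm10 chr8:105518755-105523988, plus strand) fell most. It had 81.1, 83.1 and 89.4 CPM in PT-KO and 12.9, 6.94 and 7.34 CPM after injury. The groups lay far apart, and the level was 9.62-fold lower after injury (log2 fold change -3.27 ± 0.20, adjusted p = 4.70e-07). Aqp4, a basolateral water channel, had 42.4, 16.7 and 55.5 CPM in PT-KO and 5.81, 3.51 and 4.57 CPM after injury. Even PT-KO library 2, the lowest of its group, stood above all injured libraries, and the log2 fold change was -3.08 ± 0.41 (adjusted p = 9.31e-05).

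Both other water channels fell as well. Aqp3 went from 89.5, 85.7 and 104 CPM to 28.4, 15.3 and 19.7 CPM, a 4.50-fold lower level (log2 fold change -2.17 ± 0.19, adjusted p = 5.86e-06). Aqp2 went from 132, 83.1 and 156 CPM to 68.2, 27.6 and 35.05 CPM, a 2.89-fold lower level (log2 fold change -1.53 ± 0.32, adjusted p = 0.00187). In both genes the groups were apart, and injured knockout 2 was the highest of its group in each. Avpr2, the receptor gene, had 11.5, 9.09 and 13.2 CPM in PT-KO and 4.70, 4.54 and 4.25 CPM after injury (log2 fold change -1.33 ± 0.18, adjusted p = 0.000137). Avpr2 shares 2347 exonic bases with Arhgap4 on the opposite strand, and with no strand use stated the reads of this pair cannot be told apart. Arhgap4 itself had 872 counts over all libraries, and Avpr2 2160.

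The ENaC subunits parted. Scnn1b fell from 37.8 to 47.5 CPM in PT-KO to 23.9 to 27.8 CPM after injury (log2 fold change -0.76 ± 0.12, adjusted p = 0.000247). Scnn1g fell from 40.0 to 45.1 CPM to 23.7 to 28.0 CPM (-0.75 ± 0.10, adjusted p = 0.000125). Scnn1a rose instead, from 94.0, 104 and 102 CPM in PT-KO to 129, 118 and 141 CPM after injury. The groups did not overlap, and the log2 fold change was 0.37 ± 0.092 (adjusted p = 0.00536). In a fit to all 12 libraries this call of Scnn1a was lost, and the other 8 members called were kept. Fxyd4 had 26.0, 14.8 and 34.0 CPM in PT-KO and 15.3, 9.56 and 11.7 CPM after injury, with overlap through PT-KO library 2 (-1.05 ± 0.28, adjusted p = 0.0075). Elf5 was the member that did not pass (-0.38 ± 0.56, adjusted p = 0.573), and it passed as lower when PT-KO library 2 was left out (-0.88, adjusted p = 0.0162).

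**Figure D2:**
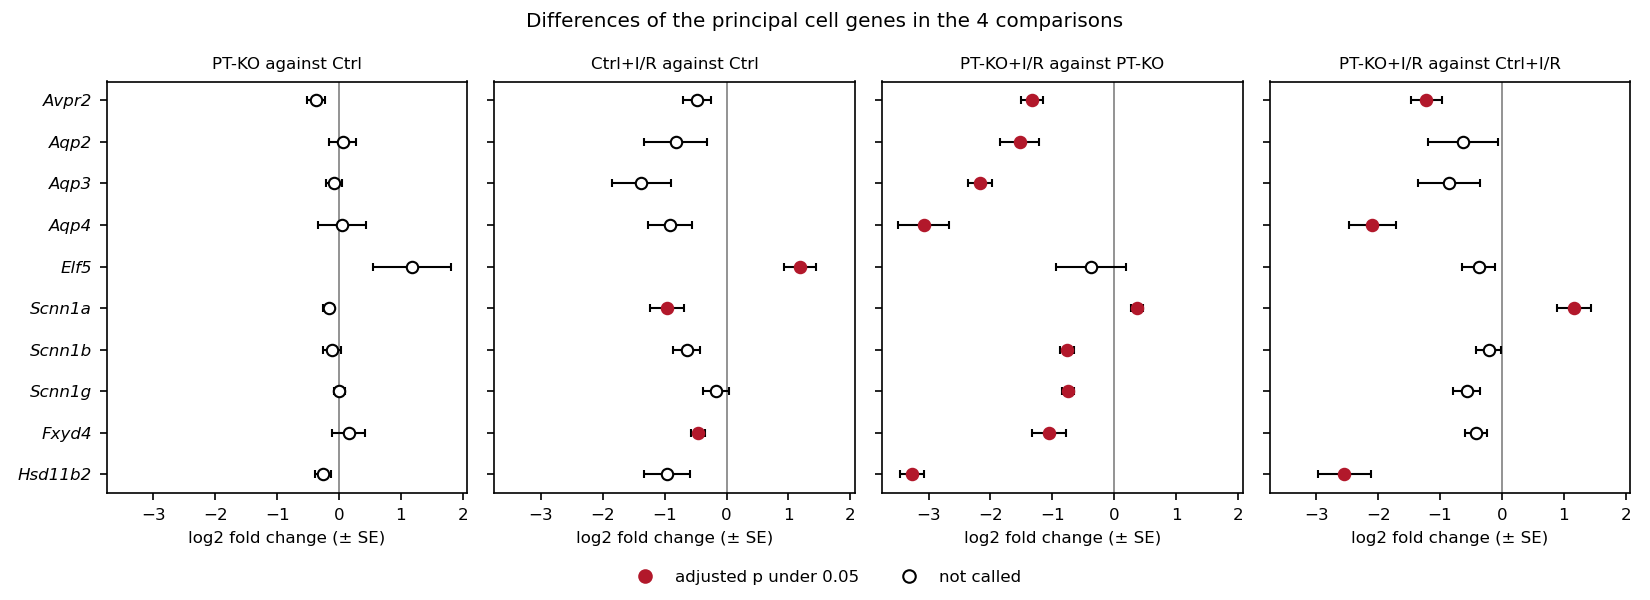
Log2 fold changes (horizontal axis, bars ± SE) of the 10 members in the 4 comparisons of 3 against 3 libraries, from edgeR. Filled points have an adjusted p under 0.05: 0 members for the knockout alone, 3 for injury of controls, 9 for injury of knockouts and 4 for the knockout after injury; panels share groups of libraries.

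The comparison of both injured groups asks how the knockout bears on the kidney after ischemia. In the injured knockouts, Hsd11b2, Aqp4 and Avpr2 were lower than in the injured controls, and Scnn1a was higher. These 4 of 10 members stand beside 46.9% of all 15281 genes (24.4% lower and 22.5% higher), so the share called was close to that of all genes. The groups are named as labelled, and Gfer itself was not lower in the injured knockouts. The same 4 members were called whichever of the 6 libraries was left out. The count was 7 without injured control 2, when Aqp3, Scnn1b and Scnn1g passed as lower too, beside 48% of all genes.

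Hsd11b2 was at 51.9, 24.5 and 78.5 CPM in the injured controls and at 12.9, 6.94 and 7.34 CPM in the injured knockouts. The groups did not overlap, and the level was 5.83-fold lower in the knockouts (log2 fold change -2.54 ± 0.43, adjusted p = 0.0027). Aqp4 had 22.8, 9.65 and 25.8 CPM in the injured controls and 5.81, 3.51 and 4.57 CPM in the injured knockouts, 4.27-fold lower (-2.10 ± 0.38, adjusted p = 0.00346). The lowest injured control, library 2, was still above the highest injured knockout. Avpr2 had 9.06, 7.83 and 14.4 CPM against 4.70, 4.54 and 4.25 CPM, 2.33-fold lower (-1.22 ± 0.25, adjusted p = 0.00628), under the limit on its overlap with Arhgap4 given above. Scnn1a had 57.6, 34.2 and 79.9 CPM in the injured controls and 129, 118 and 141 CPM in the injured knockouts, 2.25-fold higher (1.17 ± 0.27, adjusted p = 0.00982). The injured knockouts held Scnn1a within or above the range of the uninjured libraries (94.0 to 124 CPM), and the injured controls held it below.

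Aqp2 and Aqp3, which fell with injury in the knockouts, were not separated between the injured groups. Aqp2 had 45.0, 26.8 and 129 CPM in the injured controls and 68.2, 27.6 and 35.05 CPM in the injured knockouts, with overlap (log2 fold change -0.63 ± 0.57, adjusted p = 0.384). Without injured control 4 the sign turned, to 0.26. Aqp3 overlapped as well (-0.85 ± 0.49, adjusted p = 0.188). The other 4 members that did not pass were Scnn1g (-0.57, adjusted p = 0.0599), Fxyd4 (-0.42, adjusted p = 0.0916), Elf5 (-0.37, adjusted p = 0.283) and Scnn1b (-0.21, adjusted p = 0.407). Scnn1g did pass as lower with total-count scaling, DESeq2, no low-count filter and a fit to all 12 libraries (adjusted p of 0.0165 to 0.0374). Of the 6 that did not pass, Fxyd4 alone had groups that did not overlap, and 5 of the 10 members had such groups in all, beside 58.7% of all genes.

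Whether injury acted differently in the genotypes was tested by the interaction over all 12 libraries. It called 3 of 10 members, Hsd11b2, Aqp4 and Scnn1a, beside 30.6% of all 16168 genes (14.3% higher and 16.4% lower). The interaction is the log2 injury difference in PT-KO minus that in Ctrl, and for Hsd11b2 it was -2.27 ± 0.48 (adjusted p = 0.00447). For Aqp4 it was -2.14 ± 0.61 (adjusted p = 0.02). For Scnn1a, which fell with injury in Ctrl and rose in PT-KO, it was 1.34 ± 0.31 (adjusted p = 0.00734). Avpr2 missed the threshold (-0.84 ± 0.30, adjusted p = 0.0508). It passed with total-count scaling, DESeq2, no low-count filter and at least 10 counts in every library (adjusted p of 0.0401 to 0.0443), which made 4 members. With 1 library left out its adjusted p ran from 0.015 to 0.1209. For the other 6 members the adjusted p ran from 0.0979 (Scnn1g) to 0.805 (Scnn1b). The count was 6 without PT-KO library 2 or without injured control 2, beside 24.6% and 33.2% of all genes. It was 2 without PT-KO library 4 or injured knockout 3, when Aqp4 was lost, beside 23.6% and 24.9%. Without both Ctrl libraries that carried Xist it was 1 (Hsd11b2), beside 14.4%, with a single Ctrl library left whose spread is taken from the other groups.

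Ratios within a library do not depend on library scaling. They restate the levels of members in the same libraries relative to another member, and groups of this size are too small for an exact permutation test of them to pass. The ratio of Scnn1a to Scnn1g counts was 2.37, 2.87 and 2.67 in Ctrl and 2.09, 2.59 and 2.38 in PT-KO. It was 1.69, 1.22 and 1.57 in the injured controls and 5.42, 4.23 and 5.76 in the injured knockouts. The injured controls were below and the injured knockouts above all uninjured libraries. The ratio of Hsd11b2 to Scnn1g was 2.06 to 2.55 in Ctrl, 1.80 to 2.09 in PT-KO, 0.877 to 1.54 in the injured controls and 0.248 to 0.543 in the injured knockouts. For both ratios the comparison of the injured groups gave p = 0.1 in a two-sided exact permutation test, the smallest p that 3 against 3 libraries allow (0.3 after adjustment over 24 tests of 6 ratios). The same p was reached between injured and uninjured libraries of either genotype for both. Scnn1b to Scnn1g had geometric mean ratios of 1.07 in Ctrl, 0.993 in PT-KO, 0.778 in the injured controls and 0.994 in the injured knockouts, and its smallest exact permutation p was 0.2. Aqp2 to Aqp3 had geometric mean ratios of 1.21, 1.29, 1.72 and 1.98 in the same order of groups, and its exact permutation p was 0.1 for injury in the knockouts and 0.6 between the injured groups. Aqp2 to Scnn1g had 2.79, 2.81, 1.47 and 1.59, with a smallest exact permutation p of 0.2. Avpr2 to Aqp2 had 0.123, 0.0929, 0.187 and 0.111, with an exact permutation p of 0.1 for the knockout alone and at least 0.3 in the other comparisons.

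**Figure D3:**
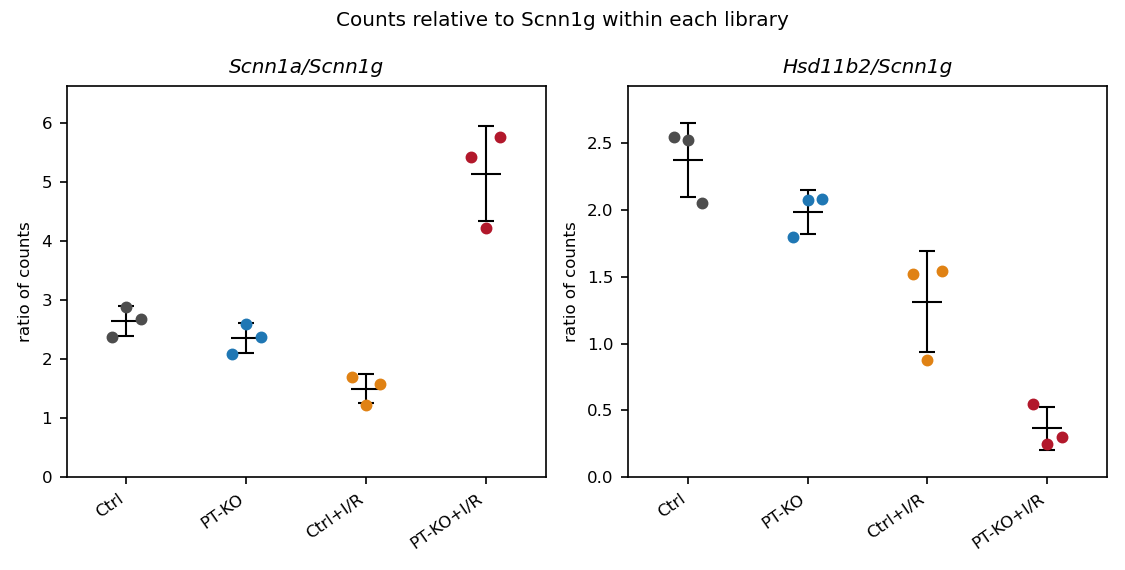
Ratio of Scnn1a to Scnn1g counts (left) and of Hsd11b2 to Scnn1g counts (right) in each of the 12 libraries, axes starting at 0, with the mean of 3 and ± SD. Scnn1a to Scnn1g runs from 4.23 to 5.76 in the injured knockouts and is at most 2.87 elsewhere; Hsd11b2 to Scnn1g is at most 0.543 in the injured knockouts and at least 0.877 elsewhere.

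The genes around the mineralocorticoid receptor moved in both directions. Of 11 genes in this list, the comparison of the injured groups called 6 higher and 2 lower in the knockouts, with a median log2 fold change of 0.79 beside -0.0049 over all genes. The share of all genes called in this comparison was 46.9% (22.5% higher and 24.4% lower), and the list counts that follow stand beside it. Those for injury in the knockouts stand beside 65.5% (32.9% higher and 32.7% lower), and those for injury in controls beside 19.4%. The receptor gene Nr3c2 was at 13.5, 9.65 and 18.7 CPM in the injured controls and at 9.22, 7.78 and 9.41 CPM in the injured knockouts (-0.67, adjusted p = 0.0539). It fell from 23.6 to 26.0 CPM in PT-KO to these levels after injury (-1.51 ± 0.13, adjusted p = 4.15e-06). Sgk1, the kinase that keeps ENaC at the membrane, had 128, 73.9 and 199 CPM in the injured controls and 455, 382 and 437 CPM in the injured knockouts (1.66 ± 0.32, adjusted p = 0.0044), and its interaction was 2.48 ± 0.47 (adjusted p = 0.00251). Per1, a clock gene that corticosteroids induce, rose by 2.00 (adjusted p = 0.00239) between the injured groups.

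Of this list, Zbtb16, Fkbp5 and Nedd4l were also among the 4 genes with the smallest p between the injured groups. Zbtb16, a zinc finger transcription factor, had 1.70 to 3.55 CPM in the injured controls and 60.2 to 67.6 CPM in the injured knockouts (log2 fold change 4.63 ± 0.23, adjusted p = 5.00e-05). Fkbp5, a co-chaperone of steroid receptors, had 74.1 to 91.3 CPM and 243 to 353 CPM (1.81 ± 0.16, adjusted p = 0.000261). Nedd4l, the ubiquitin ligase that removes ENaC from the membrane, rose by 0.79 (adjusted p = 0.00285). As background, Sgk1, Per1, Fkbp5 and Zbtb16 are induced through the glucocorticoid receptor too, and they are made in other kidney cells as well. Klf9, a transcription factor that corticosteroids induce, was the other gene called higher (0.99, adjusted p = 0.00298), and its 248 to 318 CPM in the injured knockouts overlapped the uninjured range. The 2 genes called lower were picked for naming after their values were seen. Usp2, a deubiquitinase, had 124 to 151 CPM over the uninjured libraries, 28.9 to 92.8 CPM in the injured controls and 14.2 to 26.7 CPM in the injured knockouts (-1.64 ± 0.43, adjusted p = 0.0154). Nr3c1, the glucocorticoid receptor gene, had 107 to 122 CPM and 68.5 to 86.1 CPM in the injured groups (-0.60 ± 0.12, adjusted p = 0.00563). In control kidneys injury called 3 of the 11 genes, all lower, which were Klf9 (-0.81, adjusted p = 0.0213), Nr3c2 (-0.88, adjusted p = 0.0446) and Nr3c1 (-0.40, adjusted p = 0.0465).

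**Figure D4:**
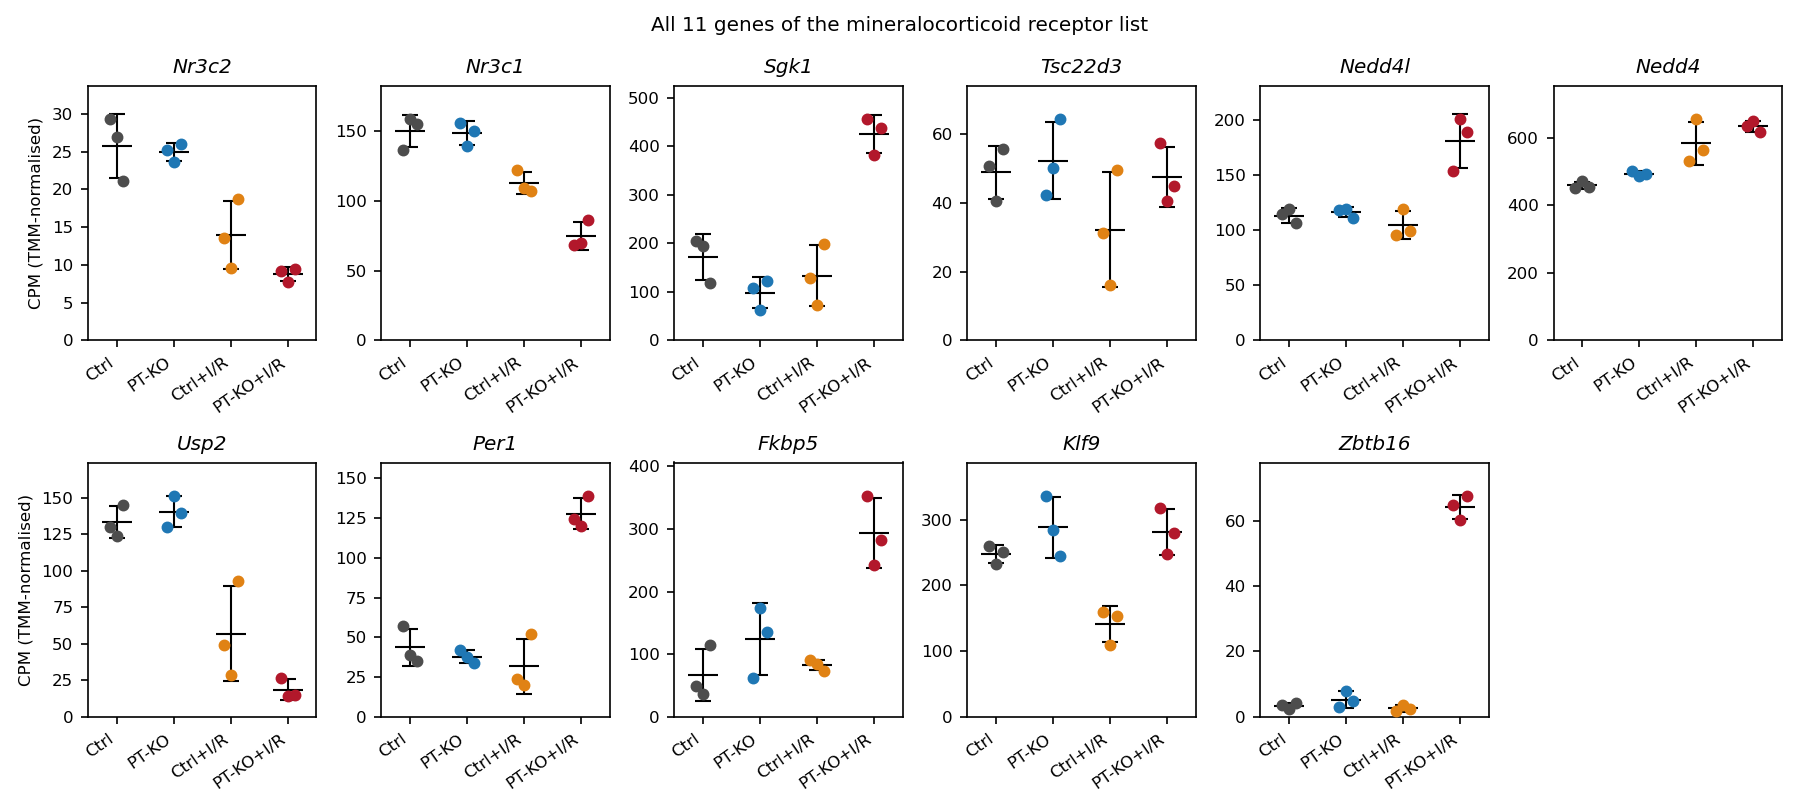
TMM-normalised CPM of all 11 genes of the mineralocorticoid receptor list in the 12 libraries, 1 panel per gene with the axis starting at 0, with the mean of 3 and ± SD. In the injured knockouts Nr3c2 (7.78 to 9.41 CPM), Nr3c1 (68.5 to 86.1 CPM) and Usp2 (14.2 to 26.7 CPM) are lower, and Sgk1, Per1, Fkbp5, Zbtb16 and Nedd4l higher, than in every other library, whereas Klf9, Tsc22d3 and Nedd4 overlap with other groups.

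Partners of sodium transport gave a mixed count. Of 13 genes for ENaC-cleaving proteases, their inhibitors, potassium channels and pump subunits, 3 were higher and 5 lower in the injured knockouts than in the injured controls. Prss8, the channel-activating protease prostasin, had 184 to 276 CPM in the injured controls and 76.9 to 104 CPM in the injured knockouts (-1.36 ± 0.19, adjusted p = 0.00114). Kcnj1, the potassium secretory channel ROMK, had 45.8 to 169 CPM and 15.9 to 30.5 CPM (-2.38 ± 0.47, adjusted p = 0.00492), and Kcnj16, a potassium channel of the basolateral membrane, fell by 1.53 (adjusted p = 0.000393). Kcnj1 is also abundant in the thick ascending limb. Tmprss2, a transmembrane serine protease, was higher (1.38 ± 0.14, adjusted p = 0.000399). With injury in the knockouts, the list had 4 genes higher and 8 lower.

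Upstream of the water channels, the list of vasopressin signalling and prostaglandin receptor genes held 18 genes, of which 17 were tested between the injured groups. There, 6 were higher and 4 lower in the knockouts, with a median of -0.27. Ptger3, a prostaglandin E2 receptor that opposes vasopressin, had 26.5 to 36.2 CPM in the injured controls and 13.0 to 16.4 CPM in the injured knockouts (-1.21 ± 0.17, adjusted p = 0.00118). Higher were Grk2, a kinase that desensitises receptors (0.57, adjusted p = 0.00209), Prkar2a, a regulatory subunit of protein kinase A (0.77, adjusted p = 0.00234), and Pde4b, a cAMP phosphodiesterase (0.79, adjusted p = 0.00237). These 3 are widely expressed. In control kidneys injury called 1 of 16 higher (Ptger4) and 2 lower (Ptger3 and Adcy6).

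Among the collecting duct transcription factors, 2 of 11 tested were higher in the injured knockouts than in the injured controls, Nfat5 (0.63, adjusted p = 0.018) and Hoxb7 (0.47, adjusted p = 0.02), and Elf3 was lower (-0.72, adjusted p = 0.0367). With injury in the knockouts, 3 were higher and 6 lower, with a median of -0.46. Other genes used as collecting duct markers split as well. Between the injured groups, Krt8 (1.67) and Cdh1 (1.01) were among 3 of 13 that were higher, and L1cam (-1.18) and Npnt (-1.04) among 3 that were lower. Krt8 is also made by injured tubules of other segments.

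Neighbouring cell types give the scale. The members' summed level was 573 to 619 CPM in Ctrl, 475 to 645 CPM in PT-KO, 185.0 to 496 CPM in the injured controls and 240.0 to 319 CPM in the injured knockouts, so the injured groups overlapped in this sum. With injury in the knockouts, 12 of 12 proximal tubule genes were lower, with a median log2 fold change of -2.76. So were 6 of 6 thick ascending limb genes (median -3.24) and 6 of 8 distal convoluted and connecting tubule genes (median -1.31). The other 2 genes of the latter list were higher. Of 13 intercalated cell genes, 10 were lower (median -1.04), and the anion exchanger Slc4a1 went from 36.1 to 51.2 CPM to 0.0854 to 0.356 CPM. The members' median of -1.19 lay among these values, and its difference from the other lists was not tested. Between the injured groups, 6 of 12 proximal tubule genes (median -1.30), 4 of 6 thick ascending limb genes (median -1.98) and 5 of 13 intercalated cell genes (median -0.29) were lower in the knockouts, with 0 higher in each list. Of the 8 distal convoluted and connecting tubule genes, 3 were lower and 1 higher. In the interaction, 7 of 12 proximal tubule genes and 3 of 6 thick ascending limb genes were lower, and of the intercalated cell genes 5 were lower and 2 higher, beside 30.6% of all genes called.

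Markers of other cell types moved in the same libraries. All 6 tubular injury genes rose with injury in the knockouts, and their summed level was 737.5 to 1904 CPM over the uninjured libraries, 10570 to 27250 CPM in the injured controls and 23140 to 25220 CPM in the injured knockouts. Between the injured groups, where Hsd11b2, Aqp4, Avpr2 and Scnn1a were called, 3 of the 6 injury genes were higher and 1 was lower in the knockouts (median 0.85). Lcn2, which encodes the injury marker NGAL, had 161 to 456 CPM in the injured controls and 1279 to 1798 CPM in the injured knockouts (2.43 ± 0.36, adjusted p = 0.00147). Havcr1 had 381 to 2105 CPM and 2257 to 3929 CPM (1.53 ± 0.55, adjusted p = 0.0494), and Krt20 was the other gene called higher. The same 3 genes were called higher in the interaction. Leukocyte genes summed to 77.03 to 96.3 CPM over the uninjured libraries, to 133.5 to 221 CPM in the injured controls and to 83.3 to 110.2 CPM in the injured knockouts. This sum joins genes that moved in opposite directions. With injury in the knockouts, 4 of 7 tested leukocyte genes were higher and 3 lower, and between the injured groups 3 were higher and 3 lower. From PT-KO to the injured knockouts, the mean levels of S100a9 and S100a8, which neutrophils make in quantity, went from 0.740 to 30.6 CPM and from 0.188 to 15.3 CPM, and that of the macrophage gene Cd68 from 1.82 to 26.2 CPM. The mean of the pan-leukocyte gene Ptprc went from 13.6 to 6.12 CPM, that of Lyz2 from 11.9 to 4.66 CPM and that of Csf1r from 51.9 to 13.2 CPM, and all 6 passed the test. Of the urothelium list, Krt20 reached 886 to 1282 CPM in the injured knockouts, out of a summed level of 896 to 1290 CPM, while Upk3b, a uroplakin gene that defines the list, was at most 6.01 CPM in any library. Of the 7 medulla and osmolyte genes, 1 was higher and 2 lower between the injured groups, the urea transporter genes Slc14a2 (-0.999 ± 0.22, adjusted p = 0.00849) and Slc14a1 (-2.50 ± 0.53, adjusted p = 0.00653). With injury in the knockouts, 4 of these 7 genes were lower and 0 higher. Slc14a1 went from 2.04 to 7.23 CPM in PT-KO to 0.322 to 0.598 CPM (-3.54 ± 0.52, adjusted p = 0.000209), while Slc14a2 did not pass the test (-0.23, adjusted p = 0.665). The part of any of these in the members' values was not tested.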

How the data were processed

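Kidney RNA was measured in 12 libraries of 4 groups. Per the labels, the authors aligned reads to mm10 with HISAT2 2.0.4, and they deposited 1 table of whole-number counts per gene, neither normalized nor filtered. The counting program, annotation and strand setting are not given in the sources used here. The column of Ctrl library 3 names its group, but its number matches no sample title.

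Symbols and exon lengths came from GENCODE M21. The two-sided quasi-likelihood F test of edgeR 4.0.16 (R 4.3.3) was run after filterByExpr and TMM on 3 against 3 libraries, or on all 12 for the interaction. Genes with a Benjamini-Hochberg adjusted p below 0.05, over all genes tested, count as called. Levels are CPM scaled over all 12 libraries, whereas fold changes come from each comparison's own fit, and comparisons share groups. The test was tried on simulated counts. Squared differences between replicates were on average 8.21 to 66.3 times the counting variance (chi-square per gene). The number of mice thus limits precision, and p-values measure the spread between these libraries.

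Members, lists, tests and alternatives were chosen with earlier results of these data known. All 10 members are described. From the 13 other lists (vasopressin and prostaglandin signalling, mineralocorticoid receptor, sodium transport partners, collecting duct transcription factors and markers, intercalated cell, distal tubule, thick limb, proximal tubule, medulla, urothelium, leukocyte, injury), up to 4 genes with the smallest adjusted p per comparison and defining genes are named. Alternatives were DESeq2 1.42.0, total-count scaling, no filter, at least 10 counts in every library, a replicate block, 1 fit to all libraries, and leaving out libraries. Same-numbered libraries did not deviate together (12 pairs, median correlation -0.0257, 1 over 0.1). Among the collecting duct transcription factors, a gene that this rule would name is not reported here.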

Additional observations from a re-analysis of the deposited data

Results flagged for a closer look

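Of the members, 3 differed in their response to injury between the genotypes by the interaction test over 12 libraries (edgeR, Benjamini-Hochberg over 16168 genes, of which 30.6% were called). The injury difference in PT-KO minus that in Ctrl was -2.27 on the log2 scale for Hsd11b2 (adjusted p = 0.00447), with 3 of 3 PT-KO+I/R libraries below every other library. It was -2.14 for Aqp4 (adjusted p = 0.0200), again with 3 of 3 PT-KO+I/R libraries below every other library. It was 1.34 for Scnn1a (adjusted p = 0.00734), where injured libraries were lower in 3 of 3 Ctrl+I/R and higher in 3 of 3 PT-KO+I/R kidneys than all uninjured libraries of their own genotype. The groups of 3 were too small for a test of single outlying libraries.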

How the results depend on the processing

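The count of members called for injury in control kidneys (3) became 1 with total-count scaling (1 higher and 0 lower, in place of 1 and 2; 20% of all genes called), 7 with DESeq2 (26%), 5 without a filter (12.7%) and 4 in a fit to all libraries (30.5%). It was 0 (6.92%) in that all-library fit without the Ctrl libraries that carried Xist, where both the libraries and the form of fit differ from the main test and the 1 Ctrl library left is assumed to vary like the other groups. Leaving out 1 library gave 0 to 7 (2.39% to 25%). Between the injured groups (4) it was 6 with total-count scaling (46.2%), 5 with DESeq2 (47%), without a filter (26.9%) and in a fit to all libraries (51.2%), and 4 to 7 with 1 library left out; for the knockout alone (0) it was 0 to 1, for injury in the knockouts (9) 9 to 10, and for the interaction (3) 2 to 6, or 1 (14.4%) without the Xist-carrying libraries. Total-count scaling moved the median log2 fold change of all genes to 0.1058 for injury in controls, -0.2102 between the injured groups, -0.1352 for the knockout alone and -0.1039 for the interaction. The replicate numbers are only shared names, so the replicate block is given here alone: it called 8 members for injury in controls (23.2% of all genes), 1 (Scnn1a) between the injured groups (11%), 1 (Hsd11b2) for the knockout alone (9.01%), 8 for injury in the knockouts (55.7%) and 1 (Scnn1a) for the interaction (19.9%).

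Signs turned mainly in the knockout alone, where no member was called: with total-count scaling for Aqp2 (-0.0557), Aqp4 (-0.0723) and Scnn1g (-0.1218), with the block for Aqp2 (-0.1352), Aqp4 (-0.5933), Scnn1g (-0.0538) and Fxyd4 (-0.2414), and without Xist-carrying libraries for Aqp2 (-0.0356), Scnn1b (0.1741) and Hsd11b2 (0.0413). The block also turned Elf5 for injury in the knockouts (0.3369) and the interactions of Aqp2 (0.0851) and Scnn1b (0.1797). With 1 library left out, ranges that cross 0 were, for the knockout alone, -0.1474 to 0.2814 (Aqp2), -0.1747 to 0.0627 (Aqp3), -0.3257 to 0.4124 (Aqp4), -0.0454 to 0.0526 (Scnn1g) and -0.1332 to 0.4314 (Fxyd4). They were -0.4484 to 0.0171 for Scnn1g with injury in controls, -1.0886 to 0.2592 for Aqp2 between the injured groups, -0.8846 to 0.0099 for Elf5 with injury in the knockouts, and -1.1473 to 0.2089 (Aqp2) and -0.3059 to 0.034 (Scnn1b) in the interaction. Of 320 values of single members under the alternatives that do not leave out 1 library, 263 kept direction and call, 18 lost a call, 26 gained one and 13 changed sign, which are those listed above. The cause of these changes was not tested. Depth limits Elf5 most, with 12 counts in PT-KO library 2.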

Other observations

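Genes that follow Aqp2 and Scnn1g most closely across the 12 libraries were ranked by the root mean square difference of log2 CPM, each gene centred on its own mean, among 16158 genes outside the 10 members. The closest to Aqp2 were Kcne1 (0.285), Kcnj10 (0.319), Ptger1 (0.360), 6330410L21Rik (0.369) and Mfsd4a (0.375). Kcnj10 encodes a basolateral potassium channel and Ptger1 a prostaglandin E2 receptor. Kcne1 had 19.7, 19.2 and 19.8 CPM in Ctrl, 9.55, 3.65 and 17.3 CPM in the injured controls and 7.09, 4.49 and 4.70 CPM in the injured knockouts, so injured control 4 stood high here as it did for Aqp2. The closest to Scnn1g were Pomgnt2 (0.128), Pik3r3 (0.131), Slc25a17 (0.132), Adgra3 (0.132) and Svopl (0.134). The smaller differences around Scnn1g go with its narrow range of levels, 23.7 to 50.9 CPM over the 12 libraries, beside 26.8 to 156 CPM for Aqp2.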
